A study of Mus musculus with 38 samples.

Results

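The transcripts of 9 genes of the Aurora and Polo kinase system were followed through oocyte maturation and the first divisions of the mouse embryo: the kinases Aurka, Aurkb, Aurkc and Plk1, the Aurora A activator Tpx2, the Plk1 cofactor Bora, and the chromosomal passenger subunits Incenp, Birc5 and Cdca8. They were taken by gene symbol, and all 9 of 9 were found among the 23125 genes of the table. All cells came from ICR mice of at least 6 weeks primed with PMSG. GV oocytes were held at prophase with IBMX, MII oocytes had matured for 12 h in culture, and interphase zygotes and two-cell embryos followed hCG and mating. Zygote M and two-cell M were embryos held in M-phase with 10 µM nocodazole, so that M-phase and nocodazole cannot be told apart in the embryo. MII oocytes had no nocodazole, so that stage and nocodazole cannot be told apart between MII and these embryos. The same holds where the change from GV to MII is set against the M-phase changes of the embryo. Cells were treated with cycloheximide before lysis, and each lysate was run on a sucrose gradient of 10 fractions, with 5 light fractions making up the non-polysome pool and 5 dense ones the polysome pool. The 6 stages gave 36 libraries, 3 for each stage and fraction.

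Aurora A and Polo-like kinase 1 act at centrosomes and spindle poles. Tpx2, freed by the Ran GTPase, holds Aurora A in its active form, and Bora lets Aurora A switch on Plk1 before entry into mitosis. Aurora B, with Incenp as scaffold and survivin (Birc5) and borealin (Cdca8) as the parts that bind chromatin, forms the chromosomal passenger complex that corrects faulty attachments of chromosomes to microtubules. Aurora C is a paralog of Aurora B known for its expression in germ cells, where it joins the same complex.

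Values are FPKM, fragments scaled by transcript length and by the depth of the library, so that they give a transcript's level relative to its library and not its amount per cell. The summed FPKM ran from 88982 in zygote polysome replicate B to 247361 in two-cell M non-polysome replicate B. Equal FPKM in different libraries is therefore not an equal share of their sums. In such bulk libraries fewer cells with a transcript and less of it in each cell cannot be told apart. The table has 0.01 added to every value. From the spacing of low values each library was estimated to hold 11.1 to 26.3 M (mega) mapped fragments. Polysome libraries had 16802 to 17066 genes above 0.01 FPKM in zygotes and 9542 to 12042 in two-cell M, and the non-polysome libraries of two-cell M had the fewest, 8538 to 9271. All 10 oocyte markers were present at every stage, with a summed polysome level of 6221 to 7348 FPKM in GV and 57.7 to 227 FPKM in two-cell M. The 6 granulosa cell markers in the table summed to at most 2.99 FPKM in any library. Of the 4 haemoglobin genes in the table, Hba-a1 gave most of the signal, and the list summed to 34.3 to 83.6 FPKM in two-cell and 24.3 to 42.5 FPKM in two-cell M polysomes and to 99.6 to 162 and 0 to 52.5 FPKM in the non-polysome pools of these stages, against at most 1.29 FPKM in polysomes of the 4 earlier stages, and its part in the two-cell results was not tested. The median log2 fold change of all tested genes was -1.17 for two-cell M against two-cell, -0.43 for zygote M against zygote and 0.18 for MII against GV in polysomes, and quantile normalization moved these medians to 0.22, 0 and -0.13. A fold change is therefore given with its distance from the median gene where that matters.

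By group means of the deposited values, Plk1 and Birc5 were the most abundant members in polysomes at every stage. Aurka stood between them and the remaining members, and Tpx2, Bora and Incenp stayed below 2 FPKM in every polysome library. This order depends on Aurkc, whose deposited values are uncertain. With the fragments of its pseudogene Gm12463 counted to it, Aurkc held 308 to 437 FPKM in GV polysomes. In MII polysomes it held 308 to 321 FPKM, and at both stages it then exceeded Plk1 and Birc5. It also exceeded them in two-cell polysomes, at 56.8 to 73.6 FPKM, and in two-cell M, at 26.9 to 94.6 FPKM. In zygote M it held 98.4 to 105 FPKM, above Plk1 and below Birc5, and in zygotes it overlapped both. Aurka, Aurkb, Aurkc, Plk1, Birc5 and Bora differed between the 6 polysome stages (limma moderated F-test, adjusted p of 6.09e-09 for Birc5 to 0.00994 for Bora), that is 6 of 9 members against 62.9% of the 7967 genes tested. Tpx2 (adjusted p = 0.291), Incenp (0.364) and Cdca8 (0.345) did not pass this test by limma. The fit to polysome libraries alone called 7 of 9, with Cdca8 (adjusted p = 0.00218 by limma), against 77.8% of all genes.

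**Figure D1:**
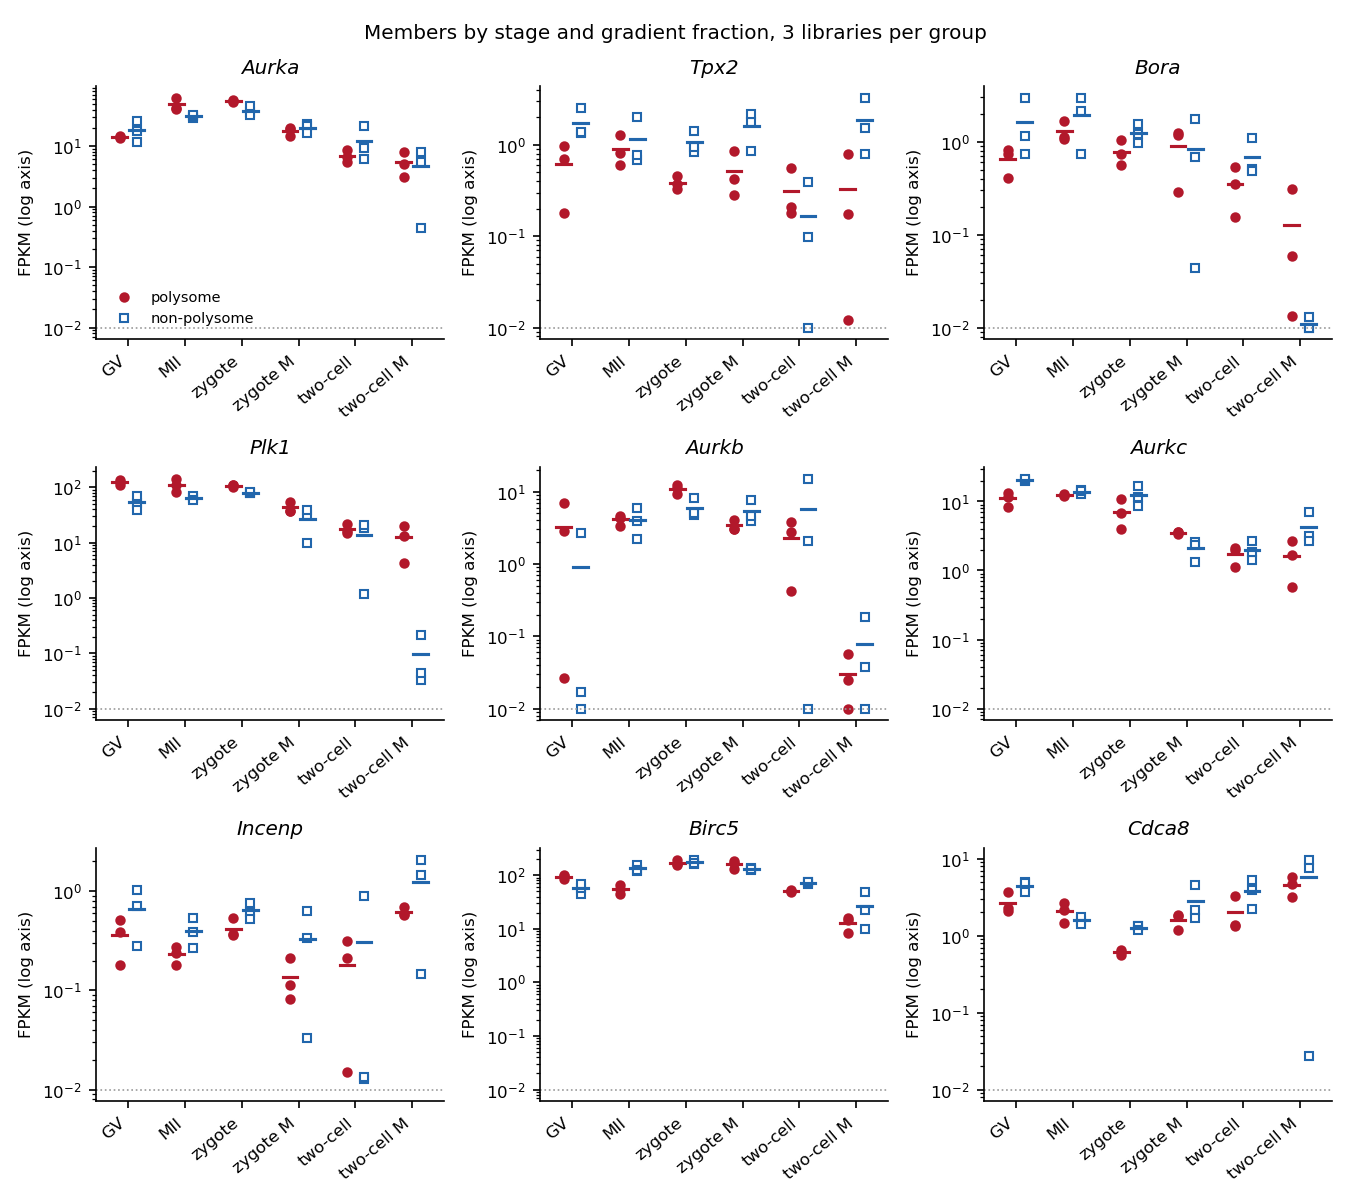
Polysome (filled circles) and non-polysome (open squares) FPKM of each member on a log axis, with 3 libraries per group and the group mean as a bar. The dotted line is the 0.01 FPKM added to all values. Aurka polysome values rise from 13.8 to 14.4 FPKM in GV to at least 40.4 FPKM in MII, and Plk1 is near the dotted line only in the non-polysome libraries of two-cell M.

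Whether polysome levels followed the cell cycle was asked by comparing each M-phase with the interphase before it. A gene was called where limma's adjusted p was under 0.05 with a fold change above 2. For MII against GV 0 of 9 members were called, against 6.11% of all genes, with 2 members at an unadjusted p under 0.05. For zygote M against zygote 0 of 9 were called, against 5.75% of all genes, with 1 member at an unadjusted p under 0.05. For two-cell M against two-cell 2 of 9 were called, Aurkb and Birc5, both lower, against 36.3% of all genes. The spread between libraries was not the same at all stages (limma array weights of 8.3 to 9.23 for zygote polysomes and 0.227 to 0.377 for two-cell M polysomes), and a fit to only the libraries compared gave other counts. It called 1 of 9 for MII against GV (27.1% of all genes), 5 of 9 for zygote M against zygote (33.1%) and 2 of 9 for two-cell M against two-cell (20.9%). The member called in MII was Aurka, and those called in zygote M were Aurka, Aurkb, Plk1 and Incenp, all lower, and Cdca8, which was higher.

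**Figure D2:**
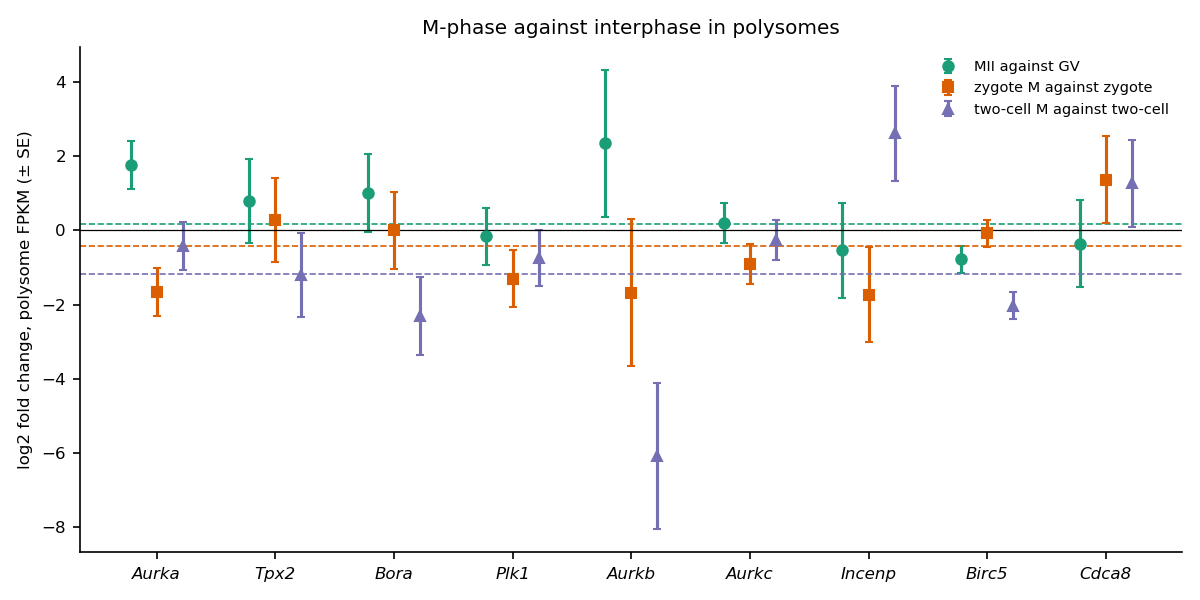
Log2 fold change of polysome FPKM, M-phase against interphase, for the 9 members with the standard error of the fit over all 36 libraries. Dashed lines mark the median of all tested genes in each comparison. Aurka is above 0 at 1.76 for MII against GV and below 0 at -1.66 for zygote M against zygote.

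Aurka (chr2:172356190-172370535, minus strand, GRCm38 with GENCODE M21 gene models, as for all positions here) had the opposite course in the oocyte and the zygote. Its polysome level was 13.8, 14.1 and 14.4 FPKM in GV and 42.9, 40.4 and 63.4 FPKM in MII, a 3.4-fold difference with no overlap. It was 57.4, 55 and 53.7 FPKM in interphase zygotes and 19.5, 14.8 and 18.8 FPKM in zygote M, 3.15-fold lower and again with no overlap. The log2 fold change was 1.76 (SE 0.65, adjusted p = 0.119 by limma over all libraries, 0.00516 over the GV and MII libraries alone) in meiosis. In the zygote it was -1.66 (SE 0.65, adjusted p = 0.163 over all libraries, 0.000855 over the zygote libraries alone). The difference between these changes was 3.42 (SE 0.93, limma adjusted p = 0.0157), or 2.75 beyond that of the median gene. It was called without each of the 12 libraries in turn but not with median centring of the libraries, and Aurka was the 1 member of 9 called for it, against 9.51% of all genes. In the order of polysome levels, interphase zygote and MII overlapped, each lay above zygote M and GV, which did not overlap each other, and two-cell and two-cell M overlapped at the bottom. Two-cell polysomes held 6.55, 8.51 and 5.41 FPKM and two-cell M polysomes 4.99, 3.07 and 8.02 FPKM.

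The non-polysome level of Aurka moved less between GV and MII. It was 11.8, 26.0 and 17.5 FPKM in GV and 29.3, 31.3 and 32.6 FPKM in MII, a log2 fold change of 0.83 (SE 0.65, limma adjusted p = 0.435). The polysome change exceeded the non-polysome change by 0.94 (SE 0.93, limma adjusted p = 0.902), so that a shift between the fractions was not resolved at this spread. In zygotes the non-polysome values were 36.6, 45.5 and 32.5 FPKM, and in zygote M 22.7, 21.2 and 16.6 FPKM.

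Cytoplasmic polyadenylation elements (CPE) in the 3′ UTR, bound by CPEB proteins, are known to set when stored oocyte mRNAs are translated. The last 150 bases of the 3′ UTR (all 146 bases for Aurkc) were searched on the sense strand for TTTTAT and TTTTAAT, as CPE, and for the polyadenylation hexamers AATAAA and ATTAAA. Of 5618 tested protein-coding genes with a 3′ UTR of at least that length, 25.0% held a CPE, 67.6% held AATAAA and 82.9% held either hexamer. Among the 9 members 3 held a CPE, a share not far from that of all genes, and these were the Aurora kinases with 1 each, and Plk1, Tpx2, Bora, Incenp, Birc5 and Cdca8 held none in this window. The windows below show in capitals the CPE of these 3, to place it in each transcript. Beside them stands the last polyadenylation hexamer of Plk1 and Birc5, the 2 most abundant members by the deposited values. Plk1 and Birc5 held no CPE in this window. They come from GENCODE M21 transcripts and are written 5′ to 3′ in the sense of the mRNA.
Aurka, chr2:172356237-172356266, minus strand: ttaaaggctattTTTTATgttggagttctg
Aurkb, chr11:69051616-69051645, plus strand: tgaagaacaacaTTTTATaataaagtctta
Aurkc, chr7:7003036-7003065, plus strand: gcttgttttctcTTTTATgaagtgatgtta
Plk1, chr7:122169843-122169872, plus strand: agctttatatatATTAAAatgtgtacatct
Birc5, chr11:117855698-117855727, plus strand: acggggtaacggAATAAAatcacttgaaaa
The CPE began 59 bases from the transcript's end in Aurka, 37 in Aurkb and 44 in Aurkc. In Aurkb it lay directly before an AATAAA at 31 bases, and in Aurkc it came before an ATTAAA at 26 bases. The 150 bases of Aurka held neither hexamer.

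Tpx2 (chr2:152847964-152895321, plus strand) was a rare transcript at all stages. Its polysome level was 0.701, 0.178 and 0.97 FPKM in GV, 1.3, 0.824 and 0.601 FPKM in MII and 0.463, 0.371 and 0.329 FPKM in zygotes. It was lower in polysomes than in the non-polysome pool in 14 of 18 gradients. In two-cell M the polysome values were 0.0122, 0.79 and 0.177 FPKM and the non-polysome values 1.55, 0.793 and 3.31 FPKM. That difference was called (log2 fold change -3.74, SE 1.14, limma adjusted p = 0.0247), with a range of -6.24 to -1.07 over the alternatives. It was not called without polysome replicate A (about 0.183 fragments) or without non-polysome replicate C, nor with quantile normalization or array weights. The fit to the two-cell M libraries alone gave a limma adjusted p of 0.43. Non-polysome two-cell libraries held 0.01, 0.0977 and 0.397 FPKM, and the rise to two-cell M in that fraction was 4.45 on the log2 scale (SE 1.14, limma adjusted p = 0.00294; 0.213 over those 6 libraries alone). It ranged from 1.22 to 8.1 over other settings, was not called with array weights, and includes a two-cell library at 0 fragments, so that its size depends on the value taken for 0.

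Bora (chr14:99046222-99074540, plus strand) was as rare. Polysome values were 0.74, 0.403 and 0.806 FPKM in GV and 1.68, 1.07 and 1.11 FPKM in MII, which did not overlap, with a log2 fold change of 1.02 (SE 1.05, limma adjusted p = 0.695). In two-cell M polysomes they were 0.311, 0.059 and 0.0132 FPKM, the lowest mean of the 6 stages, overlapping two-cell. Non-polysome two-cell M libraries held 0.0129, 0.01 and 0.01 FPKM, less than 1 fragment each, against 0.507, 0.479 and 1.08 FPKM in two-cell. With 3 fragments per library as the floor, two-cell was at least 7.69-fold higher, and the difference was called (limma adjusted p = 5.97e-05) but not with 1 FPKM added or with median centring.

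Plk1 (chr7:122159439-122169873, plus strand) was high up to the interphase zygote and lower from zygote M on. Its polysome level was 134, 109 and 123 FPKM in GV, 111, 81.2 and 144 FPKM in MII and 108, 99.2 and 108 FPKM in zygotes, where MII overlapped both GV and zygote, and GV lay above zygote without overlap (log2 0.21, SE 0.76, limma adjusted p = 0.941). It was 37.9, 38.0 and 53.7 FPKM in zygote M, which lay below the zygotes without overlap (log2 fold change -1.30, SE 0.76, limma adjusted p = 0.445 over all libraries and 0.00287 over the zygote libraries alone). Two-cell polysomes held 14.9, 16.3 and 21.4 FPKM, below zygote M without overlap, and two-cell M polysomes 4.23, 13.2 and 19.8 FPKM, which overlapped two-cell. GV exceeded two-cell 7.02-fold (log2 2.81, SE 0.76, limma adjusted p = 0.0106), or 1.96 on the log2 scale beyond the median gene. Plk1 and the processed pseudogene Plk-ps1 share 15.2% of the 31-base words of the Plk1 transcript, and Plk-ps1 was at most 1.09 FPKM in any library.

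Plk1 was low in the non-polysome fraction of two-cell M, whose libraries stood apart with few genes detected (8538 to 9271) and low limma array weights (0.141 to 0.219). That fraction held 0.0335, 0.213 and 0.0436 FPKM, or about 0.635, 11.3 and 1.25 fragments, while polysomes of the same gradients held 4.23, 13.2 and 19.8 FPKM. These values placed Plk1 at percentiles 45.7 to 56.1 of the 7967 tested genes in those non-polysome libraries, so that low values there were not particular to it. The polysome libraries lay above the non-polysome libraries in all 3 gradients, and the log2 difference was 7.25 (SE 0.76, limma adjusted p = 6.98e-08 over all libraries, 0.0852 over the two-cell M libraries alone), with a range of 3.4 to 8.08 over other settings. Interphase two-cell embryos had 18.7, 1.16 and 21.2 FPKM in the non-polysome fraction, so that it fell by 6.83 on the log2 scale into two-cell M (SE 0.76, limma adjusted p = 4.15e-08; 0.053 over those 6 libraries alone), with a range of -8.2 to -3.11. The polysome change exceeded the non-polysome change by 6.09 (SE 1.08, limma adjusted p = 0.000503; 0.178 over the two-cell libraries alone), and this was called without each of the 12 libraries in turn but not with 1 FPKM added or with quantile normalization (log2 down to 2.5). Over all stages Plk1 was higher in polysomes than in the non-polysome pool in 17 of 18 gradients, the highest number of the 9 members.

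**Figure D3:**
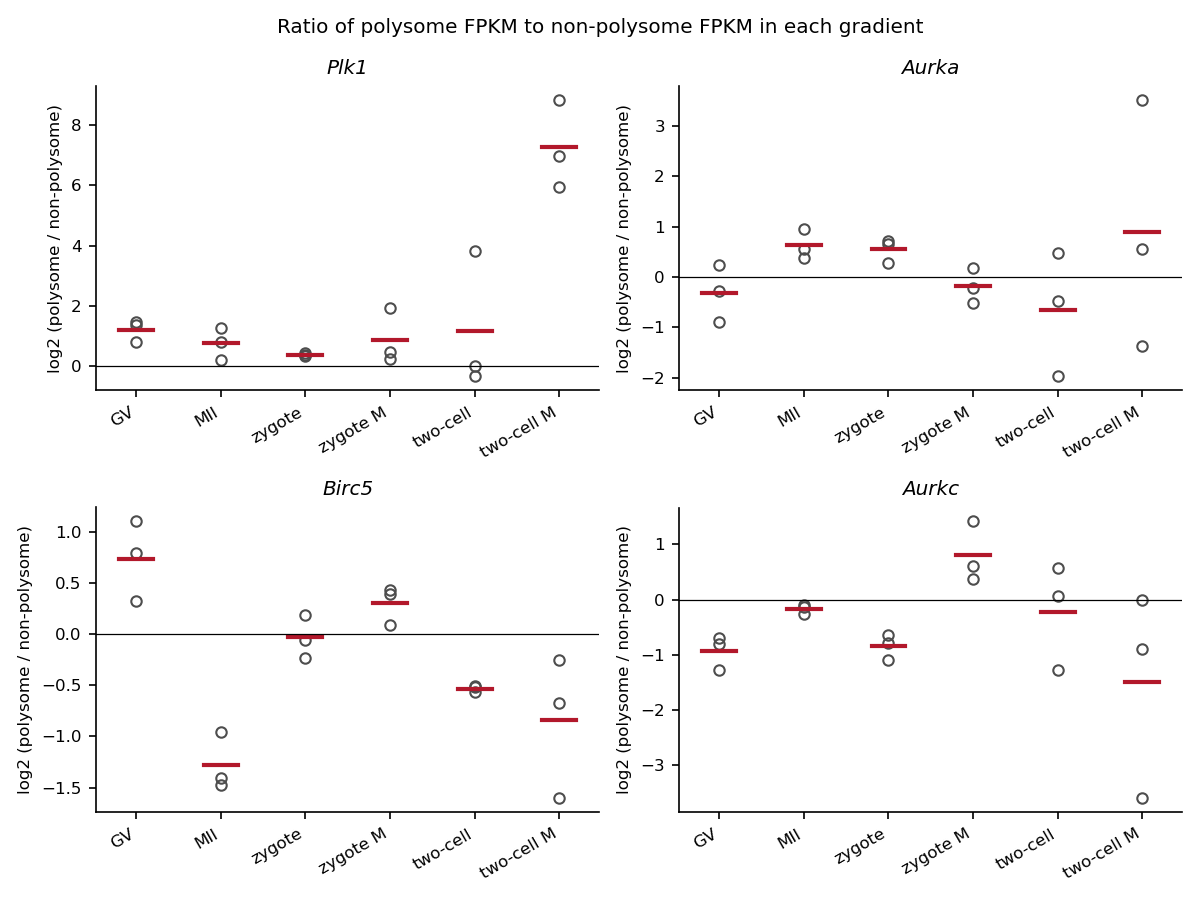
Log2 ratio of polysome to non-polysome FPKM for Plk1, Aurka, Birc5 and Aurkc, with 1 circle per gradient, 3 gradients per stage and the mean as a bar. The 3 two-cell M gradients of Plk1 lie above those of the other stages. Birc5 lies above 0 in all 3 GV gradients and below 0 in all 3 MII gradients.

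Aurkb (chr11:69045647-69051664, plus strand) was highest in polysomes of interphase zygotes, with 11.2, 12.2 and 9.27 FPKM. MII polysomes held 3.39, 4.65 and 4.38 FPKM, zygote M 3.09, 3.03 and 4.1 FPKM and two-cell 2.74, 3.79 and 0.427 FPKM, and these 3 groups overlapped in the order of levels. GV polysomes varied most, with 2.88, 0.0264 and 6.92 FPKM, the second of which rests on about 0.646 fragments. Zygote M lay below zygote without overlap, by a log2 fold change of -1.68 (SE 1.98, limma adjusted p = 0.837 over all libraries, where the GV and two-cell spread enters, and 0.00182 over the zygote libraries alone). In two-cell M all 3 polysome libraries were near 0, at 0.01, 0.0561 and 0.025 FPKM, or about 0, 1.29 and 0.324 fragments. The difference from two-cell was called (log2 -6.09, SE 1.98, limma adjusted p = 0.0175; 0.022 over those libraries alone). It was not called without two-cell replicate A, two-cell replicate B or two-cell M replicate A, nor with 1 FPKM added, quantile normalization, median centring or array weights, and its size depends on the value taken for 0 (log2 from -7.06 to -1.52 over these settings and others). Non-polysome two-cell M libraries were also low, at 0.0372, 0.186 and 0.01 FPKM, so that Aurkb was near 0 in both fractions.

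Aurkc (chr7:6995300-7003091, plus strand) was highest in oocytes. Its polysome level was 11.7, 8.21 and 13.3 FPKM in GV, 12.2, 12 and 13 FPKM in MII, and 10.7, 4.01 and 6.72 FPKM in zygotes. It was 3.57, 3.39 and 3.56 FPKM in zygote M, 1.12, 2.1 and 1.96 FPKM in two-cell and 0.573, 1.7 and 2.67 FPKM in two-cell M. GV overlapped both MII and zygote, MII lay above zygote without overlap, and two-cell and two-cell M overlapped at the bottom. GV exceeded two-cell 6.52-fold (log2 2.7, SE 0.54, limma adjusted p = 0.000824) and MII exceeded zygote M 3.52-fold (log2 1.82, SE 0.54, limma adjusted p = 0.0247). The second call was lost without any 1 of the 6 MII and zygote M libraries in the fit over all libraries, and with quantile normalization or median centring (log2 down to 1.2), and the fit to those libraries alone gave an adjusted p of 0.000621. In the non-polysome fraction it fell from 16.6, 8.56 and 11.6 FPKM in zygotes to 1.33, 2.63 and 2.33 FPKM in zygote M (log2 -2.55, SE 0.54, limma adjusted p = 0.00247).

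The values of Aurkc are uncertain because much of its sequence has copies. Of the 31-base words of its transcript 83.3% occur in transcripts of other genes, most of them pseudogenes, and 64.9% occur in the processed pseudogene Gm12463 (chr4:44752277-44753125, minus strand). Gm12463 was listed at 35.8 to 1100 FPKM, between 30.4 and 70.1 times Aurkc in every one of the 36 libraries, and fragments of the 2 genes cannot be told apart where they share words. With the fragments of Gm12463 counted to Aurkc, the polysome level was 308 to 437 FPKM in GV, 308 to 321 FPKM in MII, 102 to 249 FPKM in zygotes and 26.9 to 94.6 FPKM in two-cell M. The calls for GV against two-cell (log2 2.46), MII against zygote M (log2 1.64) and MII against two-cell M (log2 2.42) remained, with limma adjusted p of 5.17e-05, 0.00432 and 1.04e-05. The level relative to Aurkb did change, as did that relative to Plk1 and Birc5. In GV, MII, two-cell and two-cell M polysomes Aurkc with Gm12463 lay above both. In zygote M it lay above Plk1 and below Birc5, and in zygotes it overlapped both. As deposited, log2 Aurkc over Aurkb was 1.37 to 1.84 in MII polysomes, -1.6 to -0.07 in zygotes and -0.2 to 0.21 in zygote M, so that Aurkc lay above Aurkb in MII and below it in zygotes. With Gm12463 it was 6.11 to 6.5 in MII, 3.08 to 4.48 in zygotes and 4.59 to 5.12 in zygote M, so that Aurkc lay above Aurkb in each of these libraries.

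**Figure D4:**
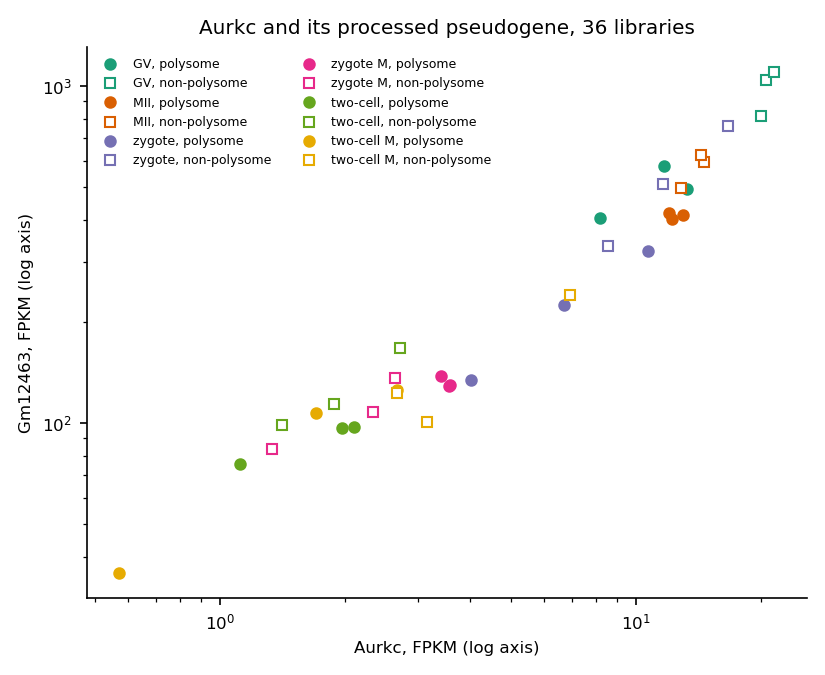
Aurkc against its processed pseudogene Gm12463 in the 36 libraries, FPKM on log axes, with filled circles for polysome and open squares for non-polysome libraries and a colour for each stage. Gm12463 is 30.4 to 70.1 times Aurkc in these libraries, and the points of both fractions follow 1 band.

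Birc5 (chr11:117849251-117855743, plus strand), survivin, peaked in the zygote. Its polysome level was 95.7, 102 and 84.1 FPKM in GV, 45.3, 54.9 and 65.2 FPKM in MII, 157, 161 and 196 FPKM in zygotes and 185, 133 and 170 FPKM in zygote M. Two-cell polysomes held 48.0, 51.1 and 52.0 FPKM and two-cell M 8.29, 14.3 and 15.8 FPKM. Zygote and zygote M overlapped, as did MII and two-cell, and all other neighbours in the order of levels did not. Two-cell M was 4.08-fold lower than two-cell (log2 -2.03, SE 0.36, limma adjusted p = 8.47e-05), called without each library in turn, and a further 0.86 lower than the median gene (relative log2 fold change -0.86). The change in the first mitosis was -0.08 (SE 0.36), and the difference between these 2 changes was 1.95 (SE 0.51, limma adjusted p = 0.00644), the 1 member call against 23.7% of all genes. Median centring ended both calls. MII was 2.96-fold lower than zygote M (log2 -1.56, SE 0.36, limma adjusted p = 0.00352).

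During meiotic maturation Birc5 differed in opposite directions in the 2 fractions. Polysomes went from 84.1 to 102 FPKM in GV to 45.3 to 65.2 FPKM in MII (log2 -0.78, SE 0.36, limma adjusted p = 0.245), while the non-polysome pool rose from 44.8, 58.7 and 67.2 FPKM to 121, 152 and 127 FPKM (log2 1.24, SE 0.36, limma adjusted p = 0.0177). The groups did not overlap in either fraction. In GV every gradient had more Birc5 in polysomes and in MII every gradient had less, with a polysome to non-polysome log2 ratio of 0.74 (SE 0.36) and -1.28 (SE 0.36). Relative to the median gene these ratios were 0.18 in GV and -1.23 in MII. The polysome change less the non-polysome change was -2.02 (SE 0.51), beside -0.59 for the median gene. Its limma adjusted p was 0.121 over all libraries and 0.0124 over the 12 GV and MII libraries. In the first fit 0 of 9 members were called, against 0.163% of all genes and with 1 member at an unadjusted p under 0.05, and in the second 1 of 9, against 2.17%. The rise in the non-polysome pool was not called without MII replicate B or GV replicate A, nor with quantile normalization or median centring.

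Incenp (chr19:9872296-9899551, minus strand) was the lowest of the passenger subunits. Its polysome values were 0.389, 0.182 and 0.514 FPKM in GV, 0.358, 0.37 and 0.532 FPKM in zygotes and 0.0811, 0.214 and 0.113 FPKM in zygote M. It was highest in two-cell M, at 0.695, 0.586 and 0.572 FPKM, above two-cell at 0.213, 0.0152 and 0.312 FPKM without overlap (log2 2.62, SE 1.28, limma adjusted p = 0.113). In the non-polysome pool the rise from two-cell (0.893, 0.0128 and 0.0135 FPKM) to two-cell M (2.09, 1.46 and 0.145 FPKM) was called (log2 3.83, SE 1.28, limma adjusted p = 0.0203), although the groups overlapped. It was not called without two-cell replicate B or C or two-cell M replicate A or B. The call was also lost with 1 FPKM added, with array weights and in the fit to only the libraries compared. Two-cell replicates B and C held about 0.118 and 0.234 fragments, so that the size of this rise depends on the value taken for 0. Its log2 fold change ranged from 0.72 to 7.48 over the alternatives.

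Cdca8 (chr4:124918465-124939311, minus strand), borealin, was lowest where Birc5 was highest. Polysome values were 2.08, 2.25 and 3.71 FPKM in GV, 2.64, 2.14 and 1.44 FPKM in MII and 0.641, 0.568 and 0.618 FPKM in zygotes. They were 1.84, 1.79 and 1.19 FPKM in zygote M, above the zygotes without overlap (log2 1.37, SE 1.17, limma adjusted p = 0.707 over all libraries and 0.0127 over the zygote libraries alone). Two-cell M had the highest mean, with 3.21, 5.79 and 4.63 FPKM, and overlapped GV and two-cell. Over the 12 group means of log2 FPKM, Pearson's r between Cdca8 and Birc5 was -0.48, between Birc5 and Aurkb 0.87, between Plk1 and Bora 0.89, between Aurka and Aurkb 0.8 and between Aurka and Aurkc 0.6, and the means share the scale of their libraries. Partner pairs with a lower r included Aurka and Tpx2 (0.25), Aurkb and Incenp (-0.37) and Aurkb and Cdca8 (-0.58). Some two-cell M means behind these values lay near the floor, those of Aurkb in both fractions and of Plk1 and Bora in the non-polysome pool. Where their exons overlap, reads of Cdca8 and 9930104L06Rik, and of Plk1 and Gm44985, on opposite strands, and of Incenp and AC132253.8, on one strand, cannot be told apart.

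Oocytes and embryos were compared by setting GV against interphase embryos and MII against embryos in M-phase. GV oocytes were at meiotic prophase under IBMX. Zygote M and two-cell M embryos had nocodazole and MII oocytes had none, so that embryo and nocodazole cannot be told apart in the MII comparisons. For GV against zygote 0 of 9 members were called, against 5.61% of all genes, with 2 at an unadjusted p under 0.05 by limma, and the fit to those libraries alone called 2 of 9 (31% of all genes), Aurka 3.92-fold lower (adjusted p = 0.0016 by limma) and Cdca8 4.26-fold higher in GV (0.00771). For GV against two-cell 2 of 9 were called, Aurkc and Plk1, both higher in GV, against 16.7%, and 2 of 9 in the fit to those libraries alone (20.6%). For MII against zygote M 2 of 9 were called, Aurkc higher and Birc5 lower in MII, against 12.4%. The fit to those libraries alone called 4 of 9 (40.6%), these and Aurka (log2 1.45) and Plk1 (log2 1.36), both higher in MII. For MII against two-cell M 7 of 9 were called, all higher in MII, against 53.0% (6 of 9 against 49.0% in the fit to those libraries alone, without Tpx2), and here the median gene was itself higher by 2.64 on the log2 scale. Aurkb (7.41, or 4.77 beyond the median gene) and Bora (4.34, or 1.69 beyond it) exceeded it most, though the fitted difference of Aurkb is from libraries of at most 1.29 fragments and is no bound. Median centring ended these calls for every member but Aurkb, and quantile normalization also ended those of Bora and Tpx2. The Tpx2 call was lost in 6 of 8 other settings and without MII replicate A or B or two-cell M replicate A. Plk1 (3.40), Aurka (3.27), Aurkc (3.17), Tpx2 (2.85) and Birc5 (2.14) lay within 0.76 of it, and Birc5 lay below it. Median centring moved the median of all genes in this comparison from 2.64 to 0.44, and with it Birc5 to -0.05. Quantile normalization moved the median to 0.14 and Tpx2 further, to -0.52, from above the median gene to below it. Incenp (-1.43, limma adjusted p = 0.357) and Cdca8 (-1.13, 0.427) had their higher values in two-cell M.

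Between fractions of the same gradients few members differed. For polysome against non-polysome 0 of 9 were called in GV (4.96% of all genes), MII (0.753%), zygote (1.38%), zygote M (1.92%) and two-cell (16.1%), with 1 member at an unadjusted p under 0.05 by limma in MII (Birc5) and 0 in the other 4 stages. Fits to the libraries of 1 stage alone called 1 of 9 in MII, Birc5, against 6.45%, and 2 of 9 in zygotes, Tpx2 (log2 -1.45, limma adjusted p = 0.0207) and Cdca8 (log2 -1.07, 0.0194), both lower in polysomes, against 20.1%. They called 0 of 9 in GV (4.26%), zygote M (1.82%) and two-cell (6.89%). In two-cell M 2 of 9 were called, Plk1 higher and Tpx2 lower in polysomes, against 14.8%, and 0 of 9 in the fit to those libraries alone (0.238%). The M-phase change differed between fractions for 0 of 9 members in the zygote (0.289% of all genes, 1 member, Aurkc, at an unadjusted p under 0.05 by limma) and for 2 of 9 in the two-cell embryo (5.75%), Plk1 and Tpx2 (log2 -5.65, SE 1.61, limma adjusted p = 0.0335). The fit to the two-cell libraries alone called 0 of 9 (1.37%). The Tpx2 call was lost in 5 of 8 other settings (log2 from -7.89 to -1.24) and without non-polysome two-cell replicate A, non-polysome two-cell M replicate C, polysome two-cell replicate C or polysome two-cell M replicate A. In the non-polysome pool itself 1 of 9 was called for MII against GV (16.6% of all genes), 1 of 9 for zygote M against zygote (10.4%) and 6 of 9 for two-cell M against two-cell (36.1%), of which Aurka, Birc5, Plk1 and Bora were lower and Tpx2 and Incenp higher. The fit to those 6 libraries alone called 1 of 9, Bora, against 11.0%. Aurka there went from 9.13, 6.11 and 21.1 FPKM to 0.438, 7.92 and 5.49 FPKM, with overlap, and was not called without two-cell replicate C or two-cell M replicate A. Median centring moved the median of all genes in this comparison from -1.14 to 2.51, and with it Aurka to 1.67 and Birc5 to 1.94, both still below the median gene. For the difference between the meiotic and the two-cell M-phase change in polysomes 1 of 9 was called, Aurkb (8.44, SE 2.8, limma adjusted p = 0.028), against 23.5% of all genes, and not without 1 of 6 libraries (polysome two-cell replicates A and B, two-cell M replicate A, MII replicates B and C, GV replicate B) nor with 1 FPKM added, no minimum, quantile normalization or median centring (log2 from 2.21 to 9.99 over all settings).

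The other genes of the 4 arms of the pathway were counted list by list, beside 6.11% of all genes called for MII against GV (268 higher and 219 lower), 5.75% for zygote M (258 and 200) and 36.3% for two-cell M (648 and 2242). Of 5 tested genes of the Aurora A and spindle pole list (11 listed), 0 were higher and 0 lower in MII against GV, 0 higher and 1 lower in zygote M, and 1 higher and 1 lower in two-cell M. Of 9 tested passenger complex regulators and substrates (13 listed), the counts were 1 and 0, 0 and 0, and 1 and 0. Of 16 tested genes around Plk1 and Cdk1 (18 listed), they were 2 and 1, 1 and 1, and 3 and 3. Of 13 tested phosphatase and APC/C genes (17 listed), they were 1 and 0, 1 and 0, and 3 and 2. The Aurora A list had a median log2 fold change of 0.48 for MII, -0.66 for zygote M and 0.94 for two-cell M. The Plk1 and Cdk1 list had medians of -0.08, -0.13 and -0.77, and the phosphatase and APC/C list of 0.61, -0.06 and 0.58. The passenger list had a median log2 fold change of 1.28 for MII, -0.41 for zygote M and 0.93 for two-cell M, beside 0.18, -0.43 and -1.17 over all genes.

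Named by size among these lists, Cdc20, the APC/C activator of anaphase, was higher in each M-phase. It was 141 ± 14.2 FPKM (SD, n = 3) in MII against 5.03 ± 0.723 FPKM in GV, 166 ± 51.5 against 2.35 ± 0.903 FPKM in the zygote and 71.4 ± 13.3 against 27.4 ± 7.32 FPKM in the two-cell embryo (log2 4.81, 6.16 and 1.39, limma adjusted p = 8.98e-10, 1.87e-12 and 0.00346). Ccnb1, cyclin B1, was 121 ± 12 FPKM in MII against 37.4 ± 9.03 FPKM in GV (log2 1.71, limma adjusted p = 0.0115, called in 3 of 6 fits that each left out 1 library), and Cdk1, its kinase, fell from 18.9 ± 1.88 to 2.37 ± 0.692 FPKM. Tacc3, an Aurora A substrate of the spindle, was 47.2 ± 6.46 FPKM in zygotes and 2.06 ± 0.339 FPKM in zygote M (log2 -4.52, SE 0.73, limma adjusted p = 9.95e-05). Ccna2, cyclin A2, was 17.3 ± 4 FPKM in zygote M against 5.92 ± 0.251 FPKM (limma adjusted p = 0.0413, lost without any 1 of the 6 libraries).

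In two-cell M the kinase of centriole duplication Plk4 was 28.3 ± 12.6 FPKM against 4.2 ± 0.695 FPKM in two-cell, and Ran, which frees Tpx2, was 53.7 ± 5.73 against 11 ± 4.7 FPKM (limma adjusted p = 0.0036 and 0.00288). Cdc25b, a phosphatase that activates Cdk1, was 1.17 ± 1.87 against 30.7 ± 11.5 FPKM. Wee2, the oocyte kinase that inhibits Cdk1, was 1.12 ± 1.09 against 14.8 ± 9.43 FPKM, and Fzr1, the APC/C activator that targets Aurora A and Plk1, was 2.06 ± 1.33 against 50.1 ± 24.3 FPKM. Cdc25b, Wee2 and Fzr1 were called lower (limma adjusted p = 0.000195, 6.28e-05 and 0.0058), without each of the 6 libraries in turn as well.

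The 3 protein-coding genes most like each kinase were taken by Pearson's r over the 12 group means of log2 FPKM among 2285 genes, as a description. For Aurka they were Tax1bp3 (r = 0.941), Sirt6 (0.936) and 0610009B22Rik (0.934). For Aurkb, Kcng4 (0.978) and Syngr3 (0.97) were among them. For Aurkc they were Pdcd2l (0.963), Tm9sf2 (0.94) and Leprot (0.938). For Plk1 they were Fbxw27 (0.977), Nelfa (0.968) and Vil1 (0.966), none of which is a member or on the pathway lists.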

How the data were processed

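Libraries were made with SMART-seq v4 from polysome and non-polysome RNA. The authors trimmed reads with Trim Galore 0.4.1, mapped them to GRCm38 with STAR 2.5.3a and quantified them over RefSeq genes, and the deposited values are FPKM with 0.01 added. Of 38 samples, 2 zygote samples are not analysed here because no column of the table bears their names. Counts were not used, and depth was estimated from the step between low values of genes with 1 transcript (46.0% to 64.3% of low values within 0.1 of a whole number of fragments). Log2 FPKM was fitted for the 7967 genes whose geometric mean over all libraries reached 0.1 FPKM, with limma 3.58.1 (R 4.3.3; empirical Bayes with trend, 12 group means, 36 libraries) and p-values were adjusted by Benjamini-Hochberg over all genes tested. All 9 members passed this minimum. The fit was also run on simulated data, but the outcome is not given here and no result rests on it.

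Members, gene lists and named genes were chosen with earlier results of these data known. The rule named all members, up to 3 listed genes in each direction per M-phase comparison with at least 10 FPKM and no overlap, and 3 genes like each kinase, of which 1 is not reported here. The differences between M-phase changes, the non-polysome M-phase comparisons and the count of Gm12463 to Aurkc were added after the data were seen. Polysome and non-polysome libraries of a gradient are paired by design, and their residuals correlated at -0.006 to 0.167 over the 18 gradients. The study calls its replicates biological, and p-values measure the spread between them. Alternatives were the offset, the minimum, the scaling, library weights, only the libraries compared, the replicate block and each library left out. Positions, transcript lengths and 3′ ends used here are from GENCODE M21 and may differ from the gene models behind the FPKM. Protein sequences were not used here.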

Additional observations from a re-analysis of the deposited data

Results flagged for a closer look

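In all, 5 differences between changes passed the test of the difference itself. Between fractions in the two-cell embryo they were 2 of 9 members, against 5.75% of all genes. In meiosis and in the zygote 0 of 9 differed between fractions, against 0.163% and 0.289%. Between M-phase changes in polysomes 1 of 9 was called for meiosis less zygote (9.51%), 1 of 9 for meiosis less two-cell (23.5%) and 1 of 9 for zygote less two-cell (23.7%). In polysomes against the non-polysome pool, the change from two-cell to two-cell M differed by 6.09 on the log2 scale for Plk1 and by -5.65 for Tpx2. In polysomes alone, the change from GV to MII exceeded that from zygote to zygote M by 3.42 for Aurka and that from two-cell to two-cell M by 8.44 for Aurkb. The change from zygote to zygote M exceeded that from two-cell to two-cell M by 1.95 for Birc5. The values for Tpx2, Aurkb and Plk1 rest in part on two-cell M libraries with under 2 fragments (0.183 for Tpx2 in polysome replicate A, at most 1.29 for Aurkb in polysomes, where GV replicate B also held 0.646, and 0.635 and 1.25 for Plk1 in non-polysome replicates A and C). The Aurkb call was lost in 4 of 9 other settings (log2 from 2.21 to 9.99 over all settings) and without 6 single libraries, GV replicate B among them. Groups of 3 libraries were not tested for outlying libraries.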

How the results depend on the processing

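For M-phase against interphase in polysomes 2 calls became 5 with quantile normalization, 1 with median centring, 6 with array weights and 8 with only the libraries compared, which included 1, 0, 1 and 2 of the original 2, and ranged from 1 to 4 without 1 library (4 without non-polysome two-cell M replicate A, 1 without two-cell polysome replicate A or B). For oocyte against embryo 11 calls became 6 with median centring (4 of the original 11), 13 with quantile normalization (8), 14 with only the libraries compared (10) and 16 with array weights (10), and ranged from 9 to 13 without 1 library. For polysome against non-polysome 2 calls became 1 with quantile normalization and 4 with median centring or array weights (2 and 1 of the original 2), and ranged from 1 to 4 (4 without two-cell M non-polysome replicate A or polysome replicate C, 1 without polysome replicate A). For the change in polysomes less that in the non-polysome pool 2 calls became 1 with no minimum or a mean of at least 1 FPKM (Plk1), 1 with 1 FPKM added or with only the libraries compared (neither of the original 2), 0 with quantile normalization and 4 with median centring, and ranged from 1 to 3 (1 without two-cell non-polysome replicate A, two-cell polysome replicate C or two-cell M polysome replicate A). The differences between M-phase changes in polysomes gave 3 calls, 6 with quantile normalization, 1 with median centring (none of the original 3), 7 with array weights, 8 with only the libraries compared, and 2 to 5 without 1 library (5 without non-polysome two-cell M replicate A). The M-phase comparisons of the non-polysome pool gave 8 calls, 4 with only the libraries compared (3 of the original 8), 7 with median centring (4), 8 with array weights (5), and 6 to 10 without 1 library. The 6 members with a stage effect ranged from 5 to 7 without 1 library. With the gradient as a replicate block the 2 calls between fractions and the 2 calls for the change remained at 2 and 2, and the letter as a replicate block left 2, 11 and 6 calls for the other comparisons. Single calls reversed were Tpx2 for MII against two-cell M with quantile normalization (-0.52), and with median centring Birc5 for MII against two-cell M (-0.05) and Aurka (1.67) and Birc5 (1.94) for two-cell M against two-cell in the non-polysome pool. Median centring moved the median of all genes from 2.64 to 0.44 and from -1.14 to 2.51 in these 2 comparisons, so that Aurka and Birc5 moved with all genes. Quantile normalization moved the median for MII against two-cell M from 2.64 to 0.14. Tpx2 moved further there, from 2.85 to -0.52, and so from above the median gene to below it. The cause of the Tpx2 reversal and of the other changes was not tested. All counts in this section are calls of members, with 9 members in each comparison. The share of all genes called was counted for the main fit and for only the libraries compared. For zygote M against zygote in polysomes it was 5.75% and 33.1%. It was not counted for the other settings, so that whether the member counts moved with those of all genes there was not tested.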
